A study of Caenorhabditis elegans with 18 samples.

Results

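The cytosolic HSP70, HSP90 and HSP110 chaperone machine of Caenorhabditis elegans was examined through 6 genes, each read by the single probe set that the platform annotation pairs with that gene alone. They were the HSP70 genes hsp-1 and hsp-70, the HSP110 gene hsp-110, the J-domain gene dnj-13, the HSP90 gene hsp-90 (long known as daf-21, and listed under that older name when the genes were chosen) and hsf-1, which encodes the heat shock transcription factor. These are 6 of the 25478 genes named on the array and 6 of its 28387 probe sets.

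RNA came from whole worms of the wild type strain N2, collected as young adults after 48 h at 20 °C in 0.3 g of soil per well, with 7500 to 10000 worms and OP50 bacteria added to each well. In both arms the soil was contaminated with lead at 2700, zinc at 4200 and cadmium at 310 mg/kg, and it came either treated with nanoscale zero-valent iron, a reactive iron powder abbreviated nZVI, or untreated (control soil). The groups were nZVI soil at 0 days, 14 days and 4 months and control soil at 0 days, 14 days and 4 months, with 3 arrays each and 18 in all. What day 0 refers to is not stated in the labels, and control soil here means metal-contaminated soil without iron, not clean soil.

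HSP70 proteins bind exposed stretches of unfolded protein and release them in a cycle driven by ATP. J-domain proteins such as DNJ-13 bring clients to HSP70 and speed its ATP hydrolysis, HSP110 swaps the spent nucleotide so that the client is let go, and in worms these proteins together can also take aggregates apart. HSP90 takes over part-folded kinases, receptors and other signalling proteins, and HSF-1 switches on many chaperone genes when proteins misfold, as they do in heat or in the presence of cadmium.

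All values are log2 signals after RMA, the authors' background correction, quantile normalisation and probe summary, so a difference of 1 is a 2-fold change. Differences were tested with limma over all probe sets of the array with Benjamini-Hochberg adjustment, and "rose" or "fell" is used where the adjusted p was under 0.05. With 3 arrays in each group, their number limits how precise any difference can be. The study describes the 3 RNA samples of a group as independent, but nothing says that they came from separate cultures, so the p-values measure only the spread between these arrays, which may be technical. Array medians ran from 3.85 to 3.99. Control arrays 1 and 3 at 4 months had narrower interquartile ranges (3.80 and 3.70) than the other 16 arrays (4.07 to 4.21), and nZVI array 2 at 14 days was distant from its 2 fellow arrays along the first principal component (10.5, against 60.0 and 64.2). The members' differences between soils at 14 days, and the members' calls that leaving out these arrays changed, are also given without them. Means of hsp-1, hsp-110, hsp-90, dnj-13 and hsf-1 over the 18 arrays lay between the 96.2 and 99.8 percentiles of all probe sets, and that of hsp-70 at the 73.1 percentile.

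At 0 days worms in nZVI soil carried less transcript of hsp-70, hsp-110, dnj-13 and hsp-90 than worms in control soil, by 1.62-fold to 1.82-fold. Thus 4 of the 6 genes fell and none rose, where 7.74% of all probe sets fell and 8.22% rose. The members and the lists below were chosen with earlier results of these data known, so such shares stand beside them without a test. For all 6 genes the 3 nZVI values lay below the 3 control values, an arrangement found in 17.8% of all probe sets. The median log2 difference of the 6 genes was -0.74, beside -0.01 over all probe sets.

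The heat-inducible HSP70 gene hsp-70 had log2 signals of 6.41, 6.35 and 6.60 in nZVI soil at 0 days, against 7.34, 7.21 and 7.42 in control soil. Every nZVI array was below every control array. The difference was -0.87 ± 0.16 (log2 ± SE, 1.82-fold lower, limma adjusted p = 0.00151).

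The gene for HSP110, hsp-110, had log2 signals of 11.64, 11.76 and 11.82 in nZVI soil at 0 days, against 12.32, 12.37 and 12.60 in control soil. The groups did not overlap, and control array 3 was the highest of all. The difference was -0.69 ± 0.14 (1.62-fold lower, limma adjusted p = 0.00269). The J-domain gene dnj-13, whose product belongs to the class of co-chaperones that work with HSP70 and HSP110, had log2 signals of 10.22, 10.51 and 10.33 in nZVI soil at 0 days, against 11.22, 10.93 and 11.26 in control soil. It fell by 0.78 ± 0.15 on the log2 scale (1.72-fold, limma adjusted p = 0.00203), and control array 2 was the lowest of its group.

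The HSP90 gene hsp-90, first known from a mutant that enters the dauer larval stage, had log2 signals of 11.19, 11.12 and 11.01 in nZVI soil at 0 days, against 11.96, 11.68 and 12.03 in control soil. The groups lay well apart, with the lowest control array again array 2. The gene fell by 0.78 ± 0.13 (1.72-fold, limma adjusted p = 4e-04), the smallest p of the 6 genes at this time.

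The remaining 2 genes were lower by less and did not pass the test. The constitutive HSP70 gene hsp-1, the worm's counterpart of HSC70, had log2 signals of 12.45, 12.46 and 12.36 in nZVI soil at 0 days, against 12.74, 12.69 and 12.70 in control soil. Its groups did not overlap and its within-group SDs were small (0.06 in nZVI soil and 0.03 in control soil). limma draws the spread of each probe set towards a value common to all probe sets, which here widened the SE. The difference of -0.29 ± 0.11 had an adjusted p of 0.0888. With a trend of spread on signal and robust moderation in limma the same difference had an adjusted p of 0.0228. For hsf-1 the log2 signals were 9.82, 9.50 and 9.79 in nZVI soil at 0 days, against 9.91, 9.92 and 10.19 in control soil. The groups came close without overlapping, and the difference was -0.30 ± 0.15 (limma adjusted p = 0.192).

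**Figure D1:**
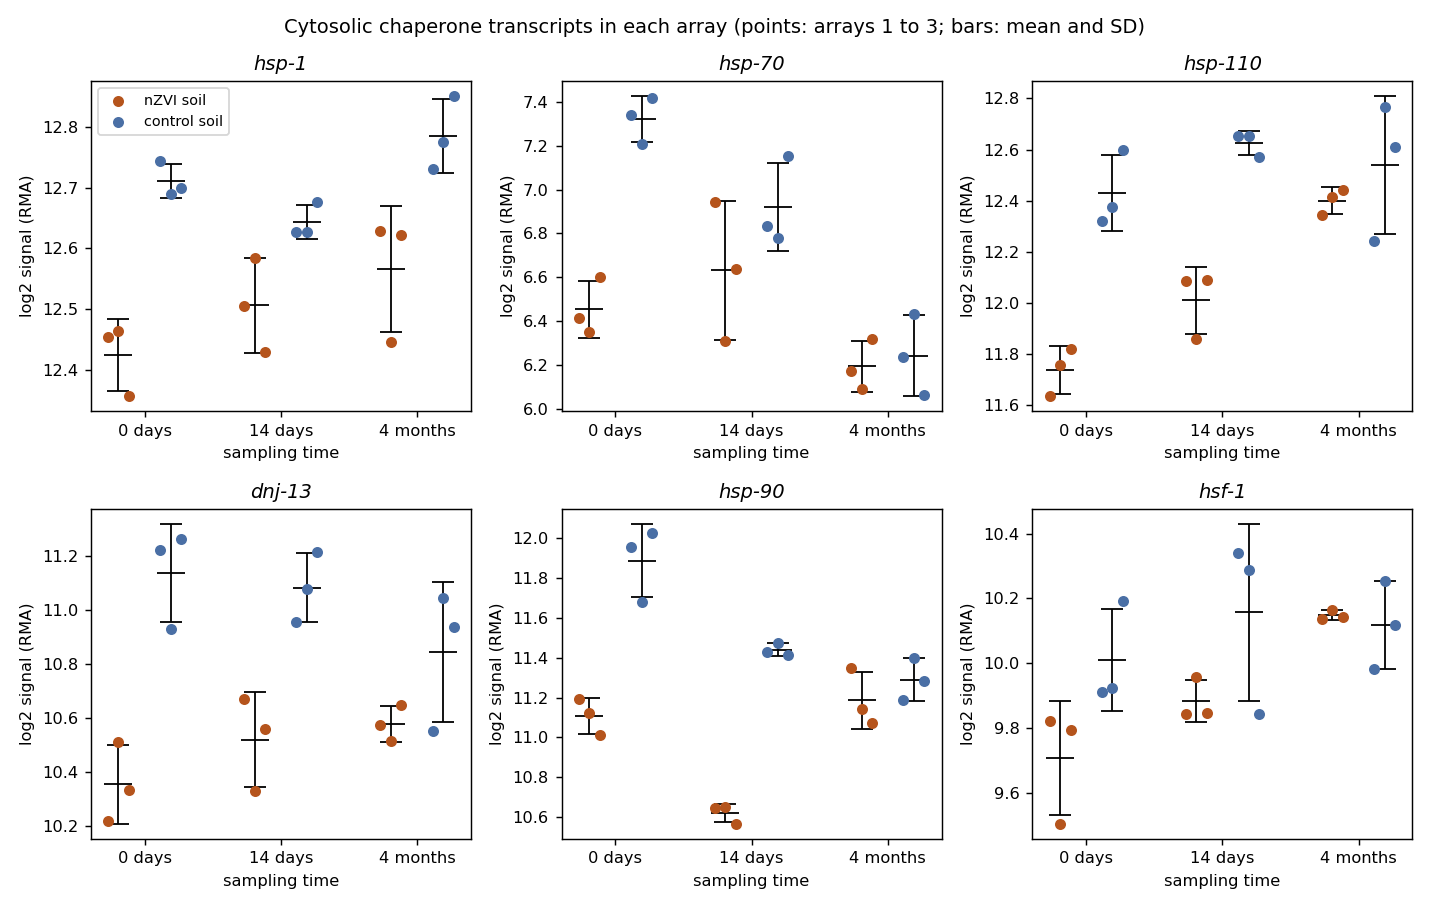
Log2 signal of each of the 6 genes in each of the 18 arrays, by sampling time, with nZVI soil (orange) left of control soil (blue); points are arrays 1 to 3 from left to right within a group, and bars give the mean and SD. At 0 days the orange and blue points are apart for every gene, and at 4 months they overlap for every gene except hsp-1.

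At 14 days hsp-90, hsp-110 and dnj-13 were again lower in nZVI soil, by 1.48-fold to 1.76-fold, and hsp-70 was not called. Thus 3 of the 6 genes fell and none rose, where 5.39% of all probe sets fell and 3.6% rose. The 3 nZVI values lay below the 3 control values for 4 of the 6 genes, against 13.7% of all probe sets. The median log2 difference of the 6 genes was -0.43, beside 0.04 over all probe sets.

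The HSP90 gene hsp-90 had log2 signals of 10.64, 10.65 and 10.57 in nZVI soil at 14 days, against 11.43, 11.48 and 11.41 in control soil. The arrays of each group lay close together, and the nZVI values were the lowest of the gene in the whole study. The difference was -0.82 ± 0.13 (1.76-fold lower, limma adjusted p = 0.000412), and -0.83 without nZVI array 2 (adjusted p = 0.00099).

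For hsp-110 the log2 signals at 14 days were 12.08, 11.86 and 12.09 in nZVI soil, against 12.65, 12.65 and 12.57 in control soil. The nZVI arrays were again below all control arrays. The difference was -0.62 ± 0.14 (1.53-fold lower, limma adjusted p = 0.00921), and -0.54 without nZVI array 2 (adjusted p = 0.034).

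The call of dnj-13 at 14 days was less secure. Its log2 signals were 10.67, 10.33 and 10.56 in nZVI soil, against 10.96, 11.08 and 11.21 in control soil, with no overlap. The difference was -0.56 ± 0.15 (1.48-fold lower, limma adjusted p = 0.027). The call was lost without nZVI array 2 (adjusted p = 0.0962), nZVI array 3 (0.0615), control array 2 (0.0811) or control array 3 (0.108). It was also lost with only the groups compared in the limma fit (0.0554) and with the replicate number as a block (0.0567).

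The other genes overlapped or differed by less at 14 days. For hsp-70 the log2 signals were 6.94, 6.31 and 6.64 in nZVI soil, against 6.83, 6.78 and 7.15 in control soil. nZVI array 1 lay among the control arrays and nZVI array 2 far below them, and the difference of -0.29 ± 0.16 was not called (limma adjusted p = 0.359). Without nZVI array 2 it was -0.13 (adjusted p = 0.781). For hsf-1 the log2 signals were 9.84, 9.96 and 9.85 in nZVI soil, against 10.34, 10.29 and 9.84 in control soil. Control array 3 was the lowest of the 6 values, just below nZVI array 1, and the difference was -0.27 ± 0.15 (adjusted p = 0.33), or -0.31 without nZVI array 2 (0.333). Weighting the arrays by their estimated quality turned it into a call (-0.41, limma adjusted p = 0.00847). Control arrays 1, 2 and 3 then had weights of 1.47, 5.81 and 0.65, so the control mean rested mostly on array 2 and least on the low array 3. hsp-1, at 12.51, 12.58 and 12.43 in nZVI soil against 12.63, 12.63 and 12.68 in control soil, differed by -0.14 ± 0.11 (adjusted p = 0.56), or -0.18 without nZVI array 2 (0.506).

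At 4 months none of the 6 genes passed the test between soils, where 2.3% of all probe sets fell and 4.77% rose. limma gave no member an unadjusted p under 0.05 at this time. The differences ran from -0.27 ± 0.15 for dnj-13 to 0.03 ± 0.15 for hsf-1, with a median of -0.12 beside -0.03 over all probe sets. Only hsp-1 had nZVI values that all lay below the control values, against 10.1% of probe sets.

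For hsp-90 the log2 signals at 4 months were 11.35, 11.14 and 11.07 in nZVI soil, against 11.19, 11.40 and 11.28 in control soil. The groups overlapped and differed by -0.10 ± 0.13 (limma adjusted p = 0.674). For hsp-110 they were 12.34, 12.42 and 12.44 in nZVI soil, against 12.24, 12.77 and 12.61 in control soil. Control array 1, 1 of the 2 arrays with a narrow spread of signals, was the lowest of these 6 values, and the difference was -0.14 ± 0.14 (adjusted p = 0.595).

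The 4-month values of dnj-13 had the same shape. Its log2 signals were 10.58, 10.51 and 10.65 in nZVI soil, against 10.55, 11.04 and 10.93 in control soil (limma adjusted p = 0.317 for the difference given above). Control array 1 lay within the nZVI arrays and the other control arrays above them. With control arrays 1 and 3 left out, so that control array 2 stood alone and was assumed to vary like the other groups, the differences were -0.47 for dnj-13 and -0.37 for hsp-110, and still none of the 6 genes was called (limma adjusted p from 0.466 to 0.995).

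The remaining genes at 4 months were close between soils. hsp-70 had log2 signals of 6.17, 6.09 and 6.32 in nZVI soil, against 6.23, 6.43 and 6.06 in control soil (-0.05 ± 0.16, limma adjusted p = 0.898). hsf-1 had 10.14, 10.16 and 10.14 in nZVI soil, against 9.98, 10.25 and 10.12 in control soil (0.03 ± 0.15, adjusted p = 0.929). Both genes overlapped between soils. hsp-1 had 12.63, 12.45 and 12.62 in nZVI soil, against 12.73, 12.77 and 12.85 in control soil. Its difference of -0.22 ± 0.11 (adjusted p = 0.241) was -0.0034 after a further quantile normalisation of the deposited values, and that of hsp-110 was then 0.04.

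**Figure D2:**
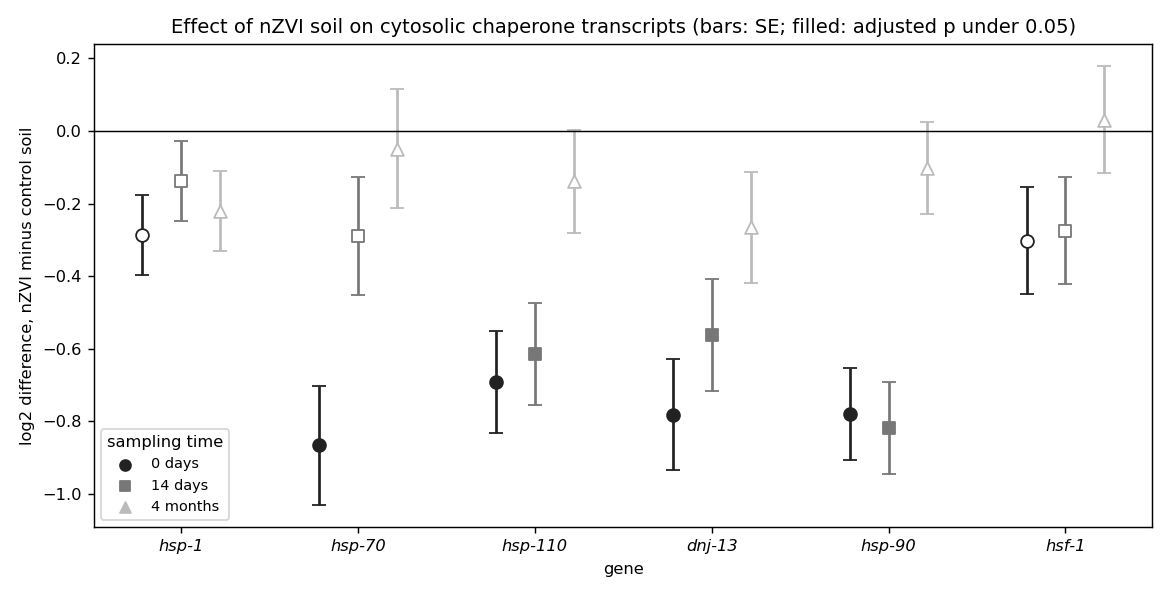
Log2 difference of nZVI minus control soil (vertical axis, bars are SE) for each gene at 0 days, 14 days and 4 months; filled symbols passed an adjusted p of 0.05 in limma. Filled symbols are hsp-70, hsp-110, dnj-13 and hsp-90 at 0 days and hsp-110, dnj-13 and hsp-90 at 14 days, and all 4-month symbols are open.

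Averaged over the 3 times, 5 of the 6 genes were lower in nZVI soil, where 9.13% of all probe sets fell and 11% rose. hsp-90 fell by 0.57 ± 0.07 on the log2 scale (limma adjusted p = 2.23e-05), dnj-13 by 0.54 ± 0.09 (0.000265), hsp-110 by 0.48 ± 0.08 (0.000325) and hsp-70 by 0.40 ± 0.09 (0.00537). These calls held in every alternative processing tried. hsp-1 fell by 0.21 ± 0.06 (adjusted p = 0.0226). The hsp-1 call was lost after a second quantile normalisation, where the difference was -0.10 (adjusted p = 0.438), with the arrays centred on their medians (adjusted p = 0.0752), without nZVI array 3 at 14 days (0.0509), without nZVI array 2 at 4 months (0.052) and without both narrow control arrays (0.0565). hsf-1 was not called (-0.18 ± 0.09, adjusted p = 0.157). It was called without control array 3 at 14 days (limma adjusted p = 0.0487) and with array weights (-0.22, adjusted p = 0.0407).

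The change of the soil effect with time was tested as a difference of differences. Between 4 months and 0 days 1 of the 6 genes passed, where 2.96% of all probe sets were called higher and 1.35% lower. For hsp-90 the soil effect was -0.10 at 4 months, against -0.78 at 0 days, a difference of 0.68 ± 0.18 (limma adjusted p = 0.041). That call was lost in 13 of 18 refits without a single array (nZVI arrays 2 and 3 and control arrays 1 and 3 at 0 days, nZVI arrays 1 and 3 and control arrays 1 and 2 at 14 days, every nZVI array and control arrays 1 and 3 at 4 months), with adjusted p up to 0.103, and without both narrow arrays (0.262). hsp-70 came close, with soil effects of -0.05 at 4 months and -0.87 at 0 days (difference 0.82 ± 0.23, limma adjusted p = 0.0546). It stayed uncalled in 20 of 26 alternatives, among them a second quantile normalisation (0.64, adjusted p = 0.118). Without nZVI array 2 at 14 days it was called (0.0294), and without both narrow arrays the difference was 0.63. The corresponding differences were 0.55 ± 0.20 for hsp-110 (adjusted p = 0.125) and 0.52 ± 0.22 for dnj-13 (adjusted p = 0.187).

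No member was called for a change of the soil effect between 14 days and 0 days (0.535% of probe sets were called higher and 0.518% lower) or between 4 months and 14 days (1.17% higher and 0.19% lower). At an unadjusted p under 0.05 limma gave hsp-70 alone in the first of these comparisons (0.58 ± 0.23, adjusted p = 0.239). In the second it gave hsp-90 (0.72 ± 0.18, adjusted p = 0.0584) and hsp-110 (0.48 ± 0.20, adjusted p = 0.217). So hsp-110 and hsp-90, called lower at 0 and 14 days and not at 4 months, were not shown by these adjusted p to differ in soil effect between 4 months and 14 days. hsp-90 stayed uncalled in 22 of 26 alternatives. It was called with trend and robust moderation (limma adjusted p = 0.0246), array weights (0.00968), a second quantile normalisation (0.0481) and without control array 2 at 4 months (0.0138).

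**Figure D3:**
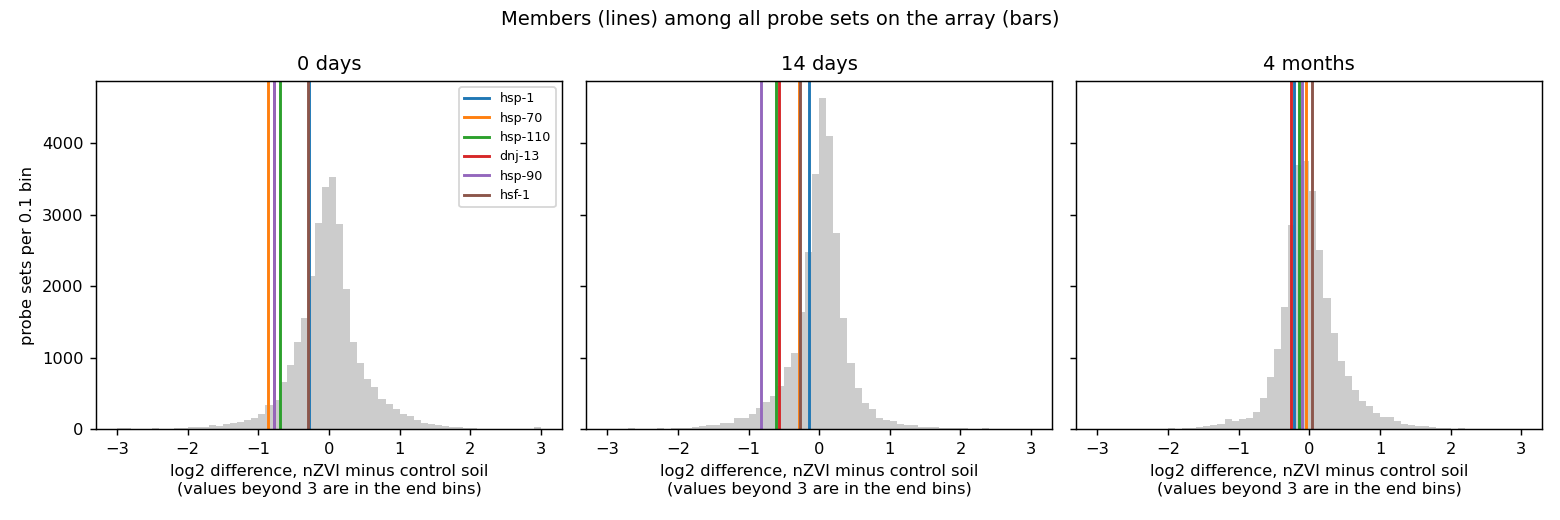
Number of probe sets (vertical axis) in each 0.1 step of the log2 difference of nZVI minus control soil (horizontal axis), for the whole array (grey bars) at each time, with the 6 genes as lines. At 0 days the lines of hsp-70, hsp-90 (which covers that of dnj-13) and hsp-110 stand in the left flank, and at 4 months all 6 lines stand near the middle.

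Among the members, only hsp-70 and hsp-90 were called between times within control soil, each in some of the comparisons. The 0-day arrays are shared by the comparisons of both later times, and the control arrays by several, so each comparison's values stand on their own here. In control soil hsp-70 averaged 7.32 ± 0.11 at 0 days, 6.92 ± 0.20 at 14 days and 6.24 ± 0.18 at 4 months (mean ± SD, n = 3 each). The 3 groups did not overlap. The 4-month level was lower than the 0-day level by 1.08 ± 0.16 on the log2 scale (2.11-fold, limma adjusted p = 0.000543) and lower than the 14-day level by 0.68 ± 0.16 (adjusted p = 0.00916). Without the 2 narrow control arrays at 4 months these differences were -0.89 (adjusted p = 0.0491) and -0.49 (0.348). The 14-day level differed from the 0-day level by -0.40 ± 0.16 and was not called (adjusted p = 0.124). With only the groups compared in the limma fit, the call between 4 months and 14 days was lost (0.0551).

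In control soil hsp-90 averaged 11.89 ± 0.18 at 0 days, 11.44 ± 0.03 at 14 days and 11.29 ± 0.11 at 4 months. It fell by 0.45 ± 0.13 at 14 days relative to 0 days (limma adjusted p = 0.0304). This call was lost without control array 1 (0.111) or 3 (0.0944) at 0 days and without control array 1 (0.081), 2 (0.078) or 3 (0.0781) at 14 days. At 4 months it was lower than at 0 days by 0.60 ± 0.13 (adjusted p = 0.00673), and -0.49 without the 2 narrow arrays (adjusted p = 0.173). With only the groups compared in the limma fit, the hsp-90 call between 4 months and 0 days was lost (adjusted p = 0.104). The 4-month level of hsp-90 differed from its 14-day level by -0.15 ± 0.13 and was not called (0.401). Of the 6 genes, 1 fell at 14 days and 2 at 4 months relative to 0 days in control soil, where 6.08% and 6.33% of probe sets fell. hsp-70 alone fell between 4 months and 14 days, where 12% of probe sets fell. No member rose in control soil, where 5.8%, 3.38% and 8.9% of probe sets rose in the same 3 comparisons.

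In nZVI soil the genes took different courses. hsp-110 averaged 11.74 ± 0.09 at 0 days, 12.01 ± 0.13 at 14 days and 12.40 ± 0.05 at 4 months, with no overlap between neighbouring times. Of all probe sets, 12.3% lay higher without overlap at 14 days than at 0 days, and 13.2% at 4 months than at 14 days. hsp-110 was higher at 4 months than at 0 days by 0.66 ± 0.14 (1.58-fold, limma adjusted p = 0.00261), a call that held in every alternative. In control soil the same gene differed by 0.11 ± 0.14 between these times (adjusted p = 0.661), and the difference between soils is the one tested above.

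hsf-1 in nZVI soil averaged 9.71 ± 0.18 at 0 days, 9.88 ± 0.06 at 14 days and 10.15 ± 0.01 at 4 months. It was higher at 4 months than at 0 days by 0.44 ± 0.15 (limma adjusted p = 0.0409). The call was lost without nZVI array 2 (0.178) or 3 (0.0577) at 0 days and without nZVI array 1 (0.0802), 2 (0.107) or 3 (0.0914) at 4 months. Together 2 of the 6 genes rose at 4 months relative to 0 days in nZVI soil and none fell, where 12% of probe sets rose and 10.2% fell.

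hsp-90 in nZVI soil dipped at 14 days. It averaged 11.11 ± 0.09 at 0 days, 10.62 ± 0.05 at 14 days and 11.19 ± 0.14 at 4 months. It was lower at 14 days than at 0 days by 0.49 ± 0.13 (limma adjusted p = 0.0227, and 0.0423 without nZVI array 2 at 14 days), the only member among the 4.67% of probe sets that fell there, while 4.13% rose. The call was lost without nZVI array 1 (0.0907) or 2 (0.0759) at 0 days and without nZVI array 1 (0.0514) or 3 (0.0774) at 14 days. It was higher at 4 months than at 14 days by 0.57 ± 0.13 (adjusted p = 0.0101), the only member among the 4.21% that rose, while 4.33% fell. That call was lost without nZVI array 3 at 14 days (0.0507) or nZVI array 1 at 4 months (0.0508). The fall at 14 days relative to 0 days was thus called in both soils. In both the call was lost after a second quantile normalisation (limma adjusted p = 0.108 in control soil and 0.0686 in nZVI soil). With only the groups compared it was lost in both as well (0.0502 and 0.0788). Between 4 months and 14 days in nZVI soil hsp-70 differed by -0.44 ± 0.16 (limma adjusted p = 0.115) and was called without nZVI array 2 at 14 days (-0.60, 0.0211). hsp-110 differed by 0.39 ± 0.14 (0.101), and its adjusted p was 0.0468 in the fit without both narrow control arrays. Array weights called both genes (0.00441 for hsp-70 and 0.0298 for hsp-110).

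The order of the 6 group means differed between genes. The nZVI groups of dnj-13 averaged 10.35 ± 0.15 at 0 days, 10.52 ± 0.17 at 14 days and 10.58 ± 0.07 at 4 months, and the control groups 11.14 ± 0.18, 11.08 ± 0.13 and 10.84 ± 0.26 at the same times. From the highest, the order was control soil at 0 days, 14 days and 4 months and then nZVI soil at 4 months, 14 days and 0 days, and every neighbouring pair overlapped. The nZVI groups of hsp-1 averaged 12.42 ± 0.06 at 0 days, 12.51 ± 0.08 at 14 days and 12.57 ± 0.10 at 4 months, and the control groups 12.71 ± 0.03, 12.64 ± 0.03 and 12.79 ± 0.06. Here too all control groups stood above all nZVI groups, and only the control groups at 0 and 14 days were neighbours without overlap.

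For hsp-110 the control groups averaged 12.43 ± 0.15 at 0 days, 12.63 ± 0.05 at 14 days and 12.54 ± 0.27 at 4 months. They and the nZVI group at 4 months overlapped in turn, and the nZVI groups at 14 days and then 0 days stood below without overlap. For hsp-90 control soil at 0 days and then at 14 days led without overlap. They were followed by control soil at 4 months, nZVI soil at 4 months and nZVI soil at 0 days, each of which overlapped with the next, and nZVI soil at 14 days lay below all of them.

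For hsp-70 control soil at 0 days stood above the rest. It was followed by control soil at 14 days, nZVI soil at 14 days (6.63 ± 0.32), nZVI soil at 0 days (6.45 ± 0.13), control soil at 4 months and nZVI soil at 4 months (6.19 ± 0.12), each overlapping with the next. The 4-month signals of this gene in both soils were therefore below its 0-day signal in nZVI soil on average. For hsf-1 the group means spanned only 0.45, from control soil at 14 days (10.16 ± 0.27) through nZVI soil at 4 months, control soil at 4 months (10.12 ± 0.14), control soil at 0 days (10.01 ± 0.16) and nZVI soil at 14 days to nZVI soil at 0 days, which alone did not overlap with its neighbour.

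The group means of hsp-90 and hsp-70 spanned 1.27 and 1.13, those of hsp-110, dnj-13 and hsp-1 0.89, 0.78 and 0.36. For the 2 genes with a span of at least 1, the genes with the most similar course were sought by the root mean square difference of the values over the 18 arrays after each probe set was centred on its own mean. Closest to hsp-70 were skr-5, a member of the SKP1-related family of ubiquitin ligase components (root mean square difference 0.179), pals-11 (0.228), which had a mean log2 signal of only 2.55 and so lay below the array medians, and ethe-1 (0.234). Closest to hsp-90 were exos-9, an exosome subunit gene (0.164), F47D12.6 (0.166) and cct-3, a gene of the cytosolic chaperonin (0.169).

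Of the 3 HSP70 partner genes, 3 fell in nZVI soil at 0 days, 2 at 14 days and 1 at 4 months. For this and the following lists, the share of all probe sets that fell was 7.74% at 0 days, 5.39% at 14 days and 2.3% at 4 months. The list held bag-1 and unc-23, whose products carry the BAG domain that binds the HSP70 ATPase and helps release its nucleotide, and hip-1, related to a mammalian protein that holds HSP70 in its client-bound state. All 3 fell at 0 days, with a median of -1.11 beside -0.01 over all probe sets. bag-1 fell by 1.82 ± 0.15 (limma adjusted p = 3.34e-07), unc-23 by 1.11 ± 0.17 (0.000305) and hip-1 by 0.87 ± 0.14 (0.000296). At 14 days bag-1 fell by 1.18 ± 0.15 (adjusted p = 4.73e-05) and unc-23 by 0.96 ± 0.17 (0.00166), and hip-1 was just short of the threshold (-0.45 ± 0.14, 0.0501).

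At 4 months bag-1 alone of the 3 fell, by 0.53 ± 0.15 (limma adjusted p = 0.0353), with unc-23 at -0.27 and hip-1 at -0.22. At this time same-numbered arrays of the 2 soils deviated together, and with the replicate number as a block bag-1 had an adjusted p of 0.0564. The call was also lost without nZVI array 1 or 3 or control array 1 or 3, with adjusted p up to 0.128.

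Of 9 HSP90 co-chaperone genes 3 fell at 0 days, 2 at 14 days and 1 at 4 months, and none rose. The medians were -0.30, -0.11 and -0.03, beside -0.01, 0.04 and -0.03 over all probe sets. The 3 at 0 days were ahsa-1, the counterpart of the HSP90 ATPase activator AHA1 (-0.9999 ± 0.15, limma adjusted p = 0.000217), fkb-6, an immunophilin gene (-0.81 ± 0.14, 0.000745), and sti-1, whose product links HSP70 to HSP90 (-0.70 ± 0.17, 0.0109).

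At 14 days ahsa-1 (-0.86 ± 0.15, limma adjusted p = 0.00132) and fkb-6 (-0.65 ± 0.14, 0.00639) fell again, while sti-1 was at -0.49 (0.0983). At 4 months ahsa-1 fell by 0.62 ± 0.15 (adjusted p = 0.0194), a call lost without nZVI array 2 or 3 or control array 1 or 3 (adjusted p up to 0.0928). cdc-37, daf-41, pph-5, unc-45, chn-1 and sgt-1, among them the kinase-specific partner and the p23 gene of HSP90, were not called at any time.

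Of the 28 other J-domain genes 4 fell at 0 days, 4 at 14 days and none at 4 months, and none rose. The share of the list that fell at 0 days was not far above the 7.74% of all probe sets. limma gave the list medians of -0.37, -0.10 and -0.04, beside -0.01, 0.04 and -0.03 over all probe sets. dnj-19, which encodes a cytosolic partner of HSP70, fell by 0.59 ± 0.13 at 0 days (adjusted p = 0.00474) and by 0.60 ± 0.13 at 14 days (0.00557). At 0 days dnj-16 fell by 1.15 ± 0.23 (0.00198), dnj-23 by 0.83 ± 0.19 (0.00733) and dnj-28 by 0.59 ± 0.19 (0.0471, lost in 13 of 18 refits without a single array, with adjusted p up to 0.173). At 14 days dnj-12 fell by 0.52 ± 0.13 (0.017), dnj-27 by 0.53 ± 0.14 (0.0237) and dnj-16 by 0.78 ± 0.23 (0.038). The call of dnj-16 at 14 days was lost without nZVI array 1 or 3 or any control array (adjusted p up to 0.152). The calls of dnj-12 and dnj-27 did not hold without some single arrays either. For dnj-12 these were nZVI array 3 and control arrays 1 and 2, and for dnj-27 nZVI arrays 1 and 2 and control arrays 2 and 3, with adjusted p up to 0.0834 and 0.101.

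The chaperonin genes cct-1 to cct-8, whose products form the double ring that folds actin and tubulin, fell in 4 of 8 cases at 0 days, 5 of 8 at 14 days and none at 4 months. Over all probe sets 7.74%, 5.39% and 2.3% fell at these times. The list medians were -0.40, -0.49 and -0.26, beside -0.01, 0.04 and -0.03 over all probe sets. At 0 days cct-2 (-0.52 ± 0.13, limma adjusted p = 0.0106) and cct-3 (-0.52 ± 0.12, 0.00784) fell in every refit without a single array. cct-6 (-0.46 ± 0.13, 0.0183) was lost without nZVI array 2 or 3 or control array 2 or 3, and cct-4 (-0.44 ± 0.13, 0.0296) without any of the 6 arrays compared. At 14 days cct-2 fell by 0.63 ± 0.13 (0.00418), cct-3 by 0.60 ± 0.12 (0.00403) and cct-1 by 0.57 ± 0.12 (0.00567). The calls of cct-4 (-0.46 ± 0.13, 0.0337) and cct-5 (-0.51 ± 0.14, 0.0253) were lost without nZVI array 1 or 3 or control array 1 or 2. With the arrays centred on their medians 2 of the 8 were called at 0 days and 3 at 14 days.

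The 2 singly measured hsp-16 genes, small heat shock proteins that are switched on by HSF-1, had larger differences than any member at 0 days. hsp-16.2 fell by 1.90 ± 0.28 (limma adjusted p = 0.000189) and hsp-16.41 fell by 1.25 ± 0.22 (0.000827). hsp-16.41 was dim, with group means of 2.58 in nZVI soil and 3.83 in control soil, below the median of every array. At 14 days hsp-16.2 fell by 1.74 ± 0.28 (0.000656), and hsp-16.41 was at -0.53 (0.168). At 4 months hsp-16.2 was at -0.71 ± 0.28 (0.139), and with the replicate number as a block its adjusted p was 0.0414. The other hsp-16 genes and the cytosolic HSP70 genes F44E5.4 and F44E5.5 share probe sets between genes and are not named here.

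Among relatives of the members few genes passed the test, though some that did not pass had differences as large as called members. Of 7 other HSP70 family genes 1 fell at 0 days and at 14 days, the endoplasmic reticulum gene hsp-4 (-0.45 ± 0.12, limma adjusted p = 0.0148, and -0.49 ± 0.12, 0.0119). Its call was lost at 0 days without nZVI array 3 or control array 3, and at 14 days without nZVI array 1 or control array 2 (adjusted p up to 0.0575 and 0.0715). At 4 months F11F1.1 fell by 0.63 ± 0.15 (0.0139), a call lost without control array 3 (0.0721), on a probe set with a mean log2 signal of 3.21, below the array medians. The mitochondrial hsp-6 was at -0.28 ± 0.12 at 0 days (0.126). stc-1 was at -0.63 ± 0.22 at 0 days (0.0643) and -0.58 ± 0.22 at 14 days (0.129), and T14G8.3 was at -0.60 ± 0.19 at 14 days (0.0594).

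The organelle HSP90 genes enpl-1 and hsp-75 were not called at any time, with differences from -0.46 to -0.00091. Of 6 prefoldin genes, which hand actin and tubulin to the chaperonin, only pfd-5 fell, at 4 months (-0.71 ± 0.16, limma adjusted p = 0.0114). That call was lost without nZVI array 3 or control array 3 (adjusted p up to 0.059). The HSF-1 binding regulators hsb-1, ddl-1 and ddl-2 were not called at any time. hsb-1, whose product binds and restrains HSF-1, was at 0.24 ± 0.15, 0.28 ± 0.15 and 0.23 ± 0.15 at the 3 times (adjusted p = 0.331, 0.333 and 0.38).

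**Figure D4:**
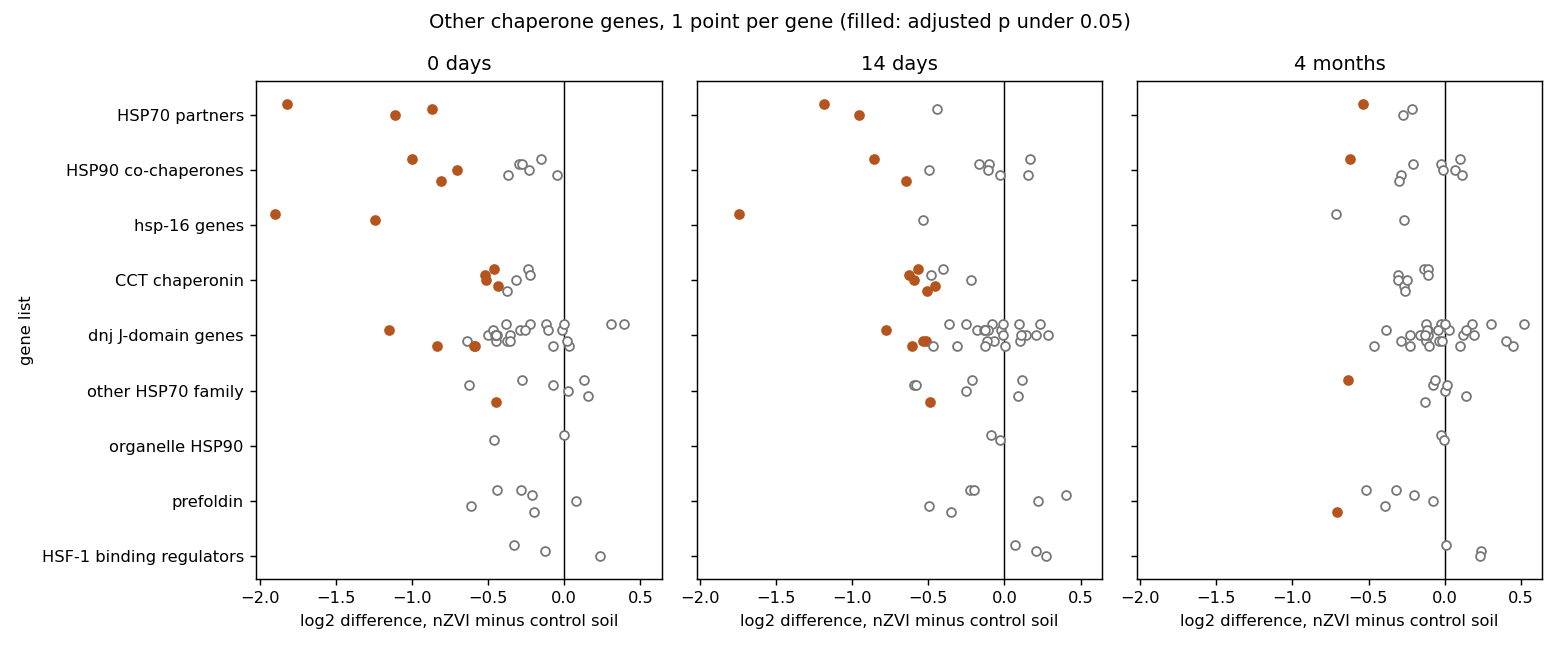
Log2 difference of nZVI minus control soil (horizontal axis) for each measured gene of 9 lists of other chaperone genes, 1 point per gene, at the 3 times; filled points passed an adjusted p of 0.05 in limma. All filled points lie left of 0, and hsp-16.2 (-1.90) and bag-1 (-1.82) are the farthest left at 0 days.

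Marker genes of tissues and stages were read beside these results, since in whole worms fewer cells of a type and less RNA per cell cannot be told apart. Beside the marker counts at the 3 times, 7.74% of all probe sets fell at 0 days, 5.39% at 14 days and 2.3% at 4 months. The shares of all probe sets that rose were 8.22%, 3.6% and 4.77%. At 0 days 4 of 8 germline markers fell and none rose. Their summed linear signal was 3461 to 4790 in nZVI soil and 5681 to 6428 in control soil. Such sums are weighted towards the brightest genes of a list, here gld-1, which was not called (-0.39 ± 0.18, limma adjusted p = 0.158). Each of the 8 germline markers, like the members, had a lower mean in nZVI soil at this time, with the smallest difference in gld-1. Of 8 oocyte and eggshell markers 1 fell (sums of 7420 to 9658 in nZVI soil, against 9688 to 12141 in control soil), 2 of 5 epidermis markers fell (324 to 348 in nZVI soil, against 421 to 487 in control soil), and 4 of 6 intestine markers and 3 of 7 moulting genes rose. The intestine sum was 4089 to 4808 in nZVI soil, against 2703 to 3295 in control soil, and the moulting sum 3428 to 5047 in nZVI soil, against 2068 to 2629 in control soil. Of 7 muscle markers 2 rose, unc-15 by 0.45 ± 0.13 (limma adjusted p = 0.0258) and tnt-3 by 0.78 ± 0.13 (0.000453), with sums of 8757 to 10239 in nZVI soil, against 7119 to 8141 in control soil. Of 7 sperm markers fer-1 fell with the members (-0.89 ± 0.22, 0.00926), and the sums were 189 to 269 in nZVI soil, against 252 to 294 in control soil. Of 8 early embryo markers end-3 alone was called, and it fell (-0.83 ± 0.23, 0.0205). Its group means, 2.62 in nZVI soil and 3.45 in control soil, lay below the array medians. The uncalled markers went both ways, from -0.27 for med-1 to 0.51 for med-2. The early embryo sums were 63 to 77 in nZVI soil, against 66 to 73 in control soil. Single calls in a list of 7 or 8 markers were not far above the share of all probe sets at this time.

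At 14 days none of the germline or oocyte markers was called. The germline sum was 5336 to 7952 in nZVI soil, against 4147 to 5787 in control soil, and the oocyte sum 11171 to 17579 in nZVI soil, against 7937 to 10489 in control soil. The germline sums overlapped between soils, and the oocyte sums did not, with those in nZVI soil the higher. Epidermis markers, 4 of 5 of which rose, summed to 1256 to 1367 in nZVI soil, against 371 to 403 in control soil, and 2 of 6 intestine markers rose (3533 to 4662 in nZVI soil, against 3140 to 3406 in control soil). Of the muscle markers unc-54 rose (0.55 ± 0.12, limma adjusted p = 0.00732), with sums of 11711 to 12406 in nZVI soil, against 8955 to 10105 in control soil. Of the moulting genes mlt-10 rose (1.07 ± 0.28, 0.0216), with sums of 3182 to 6355 in nZVI soil, against 2917 to 3924 in control soil. No sperm or early embryo marker was called at this time. At 4 months none of the germline or oocyte markers was called, and 3 of 6 intestine, 3 of 5 epidermis and 3 of 7 moulting markers rose. The muscle marker unc-54 (0.62 ± 0.12, limma adjusted p = 0.0054) and the sperm marker fer-1 (0.81 ± 0.22, 0.0322) rose as well. None of 6 neuron markers was called at any of the 3 times. Early embryo markers averaged 2.85 to 3.23 on the log2 scale, below the median of each array. The part of any of these marker lists in the chaperone results was not tested.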

How the data were processed

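Whole-worm total RNA was read on Affymetrix C. elegans Gene ST arrays, 1 per sample, per the labels' protocols. The authors deposited log2 values, made with RMA and Transcriptome Analysis Console per the submitters' processing notes. Their versions were not given in the sources used. RMA includes a quantile normalisation, so a change common to most transcripts may be removed. The deposited arrays still differ in median and interquartile range. The platform annotation gave 1 symbol to 25546 of 28387 probe sets, several to 646 and none to 2195. Of those with 1 symbol, 25495 matched RefSeq by Entrez identifier and took its current symbol. Neither table used here lists daf-21, and hsp-90 (locus C47E8.5) was taken for it because daf-21 is known as an older name of that gene. No sequence is shown, since none was used here.

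Each of 13 comparisons was fitted with limma 3.58.1 in R 4.3.3 (lmFit, contrasts.fit, eBayes, two-sided) on all 18 arrays with 1 coefficient per group, with Benjamini-Hochberg adjustment across the 28387 probe sets and a threshold of 0.05. The fit was tested on simulated data. Gene lists used the brightest probe set per gene. Named were all members, the list genes with the smallest p among those called (up to 3 per list and time, and all of lists of up to 3), and the 3 most similar genes. Outside this rule, dnj-28 at 0 days, dnj-16 at 14 days, cct-4, cct-5, hsp-6, stc-1, T14G8.3, the marker genes and the HSP90 co-chaperone genes that were not called were named after their values were seen, to account for the counts. The members and lists were chosen with earlier results of these data known.

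Alternatives were array weights, trend and robust moderation, median centring, a second quantile normalisation, a minimum mean log2 of 5, fits of the compared groups only, a replicate block, leaving out each array, and, added after seeing the data, leaving out 2 control arrays at 4 months. Same-numbered arrays were checked for pairing by the correlation of their deviations from group means. All 3 pairs exceeded 0.1 for nZVI and control soil at 4 months (0.104 to 0.374) and for nZVI soil at 4 months and 14 days (0.108 to 0.209), and in no other comparison. The pairing rests on the numbers in the labels. At most 0.109% of values were identical between any 2 arrays.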

Additional observations from a re-analysis of the deposited data

Results flagged for a closer look

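For hsp-90 the effect of nZVI soil differed between 4 months and 0 days by the test of that difference (0.68 ± 0.18 on the log2 scale, limma adjusted p = 0.041). The soil difference was -0.10 at 4 months, against -0.78 at 0 days. The adjusted p ran from 0.0178 to 0.262 over 26 alternatives, and 9 of them kept the call.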

How the results depend on the processing

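Of 2022 refits of a member in a comparison, 1944 kept the direction of a call and the side of the threshold, 56 lost a call, 22 gained a call and 0 reversed one. Most results were not called to begin with, and those that stayed uncalled counted as kept whatever their sign. Leaving out an array of a group outside a comparison leaves its difference unchanged, so the count kept is high in part by construction. The 4 calls at 0 days and those of hsp-90 and hsp-110 at 14 days held in all 26 alternatives, and the cause of the changes below was not tested.

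Array weights raised the probe sets called to 6846 for nZVI against control soil at 14 days and 3394 at 4 months, to 1256, 2490 and 3818 for the change of the soil effect (14 days against 0 days, 4 months against 0 days, 4 months against 14 days), to 8645 and 9063 in control soil (14 days against 0 days, 4 months against 14 days) and to 3813 and 7084 in nZVI soil (the same 2 comparisons). They called 1, 2 and 1 members for the 3 changes of the soil effect, 2 in control soil at 14 days against 0 days and 3 in nZVI soil at 4 months against 14 days. Fitting only the groups compared gave 382 probe sets between soils at 4 months, 181 for the change of the effect at 4 months against 14 days, 745 and 1947 in control soil at 4 months against 0 and 14 days and 1640 in nZVI soil at 14 days against 0 days. It called 0 members in control soil at 14 days, 1 and 0 there at 4 months and 0 in nZVI soil at 14 days. Without both narrow arrays, a choice made after seeing the data, the counts were 186 between soils at 4 months, 551, 424 and 8 for the changes of the effect, and 766 and 332 in control soil at 4 months. Members called were then 0 for the change of the effect at 4 months against 0 days, 1 and 0 in control soil at 4 months and 2 in nZVI soil at 4 months against 14 days. A minimum mean log2 of 5 left 210 probe sets for the change of the effect at 4 months against 14 days and 2 members at 4 months against 0 days. Trend and robust moderation called 1 member for the change of the effect and 2 in nZVI soil, both at 4 months against 14 days. Median centring left 0 members for the change of the effect and 1 in nZVI soil, both at 4 months against 0 days. A second quantile normalisation called 1 member for the change of the effect at 4 months against 14 days and 0 in each soil at 14 days against 0 days. Without any of these alternatives 4.32% of probe sets were called for the change of the effect at 4 months against 0 days. The share was 1.36% at 4 months against 14 days. In nZVI soil 22.2% and 8.53% were called at 4 months against 0 and 14 days, and 8.8% at 14 days against 0 days. In control soil 11.9% were called at 14 days against 0 days. Where a setting above has no count of probe sets, its share is not given.

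Where same-numbered arrays deviated together, the replicate block changed no member's call. Elsewhere the samples share only a number. There the block left 0 members for the change of the effect at 4 months against 0 days, 0 in control soil at 14 days against 0 days and 1 in nZVI soil at 4 months against 0 days, and dnj-13 at 14 days and hsp-1 averaged over times had adjusted p of 0.0567 and 0.0542 in limma.

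Leaving out 1 array at a time gave 2826 to 5511 probe sets between soils at 0 days, 1562 to 2955 at 14 days, 773 to 5415 at 4 months and 4784 to 6907 on average. For the changes of the effect it gave 155 to 480, 616 to 3464 and 79 to 3769, in control soil 1226 to 4345, 1303 to 5242 and 2773 to 9132, and in nZVI soil 1255 to 2944, 4115 to 6922 and 975 to 4571. Members called ran from 4 to 4, 2 to 3, 0 to 0 and 4 to 6 between soils, 0 to 0, 0 to 3 and 0 to 1 for the changes of the effect, 0 to 1, 2 to 2 and 1 to 1 in control soil and 0 to 1, 1 to 2 and 0 to 2 in nZVI soil.

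Centring moved the median of all probe sets by at most 0.071. The share of lower calls moved by over 10 percentage points with centring for the soil comparison at 14 days (49.4%, against 59.9% as deposited), for the change of the effect at 4 months against 0 days (42.4%, against 31.3%) and against 14 days (25.2%, against 14.0%), in control soil at 4 months against 0 days (53.2%, against 65.2%) and in nZVI soil at 4 months against 14 days (61.7%, against 50.7%). A second quantile normalisation gave 42.2% and 54.3% for the second and the fourth of these.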
